A study of Arabidopsis thaliana with 9 samples.

Results

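The 6 probe sets described here measure genes of iron storage and iron uptake in Arabidopsis thaliana seedlings. They are 3 ferritins, FER1 (251109_at, AT5G01600), FER3 (251735_at, AT3G56090) and FER4 (263831_at, AT2G40300), the iron transporter IRT1 (254550_at, AT4G19690), the transcription factor bHLH39 (251677_at, AT3G56980) and the transporter OPT3 (245296_at, AT4G16370). They were chosen by name for their known role in iron metabolism, from 22746 probe sets on the ATH1 array. The choice was made with earlier results of these data known. The pairing of these probe sets with their genes came with that choice, because the platform annotation used for all other names listed 0 of the 6.

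All samples were whole seedlings of the ecotype Columbia-0, collected at 8 days of age, with 3 arrays per group. In the SNP group, 3-day-old seedlings stood for 5 days in open dishes inside a sealed 15 cm dish, beside a 5 cm dish holding 15 ml of 100 uM sodium nitroprusside (SNP), a donor of nitric oxide. In the cPTIO group, seedlings of the same age had 2 ml of 1 mM cPTIO, a scavenger of nitric oxide, added to their own dishes in a sealed 15 cm dish for 5 days. The third group was untreated, and the labels do not say whether its dishes were sealed. Nitroprusside is an iron complex, but by the labels its solution stayed in a separate dish, so that the agents differed in route as well as in dose. The labels call the samples biological replicates without saying whether they came from separate exposures, so the p-values below cover only how far these samples vary, and part of that variation may be technical.

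Plants must take up enough iron for photosynthesis and respiration while keeping free iron, which generates reactive oxygen, low. Ferritin is a hollow protein shell in plastids that stores iron, and FER1 transcript is known to rise when iron is plentiful. Under iron shortage, root epidermal cells reduce and import iron through IRT1, under the control of bHLH transcription factors, while OPT3 loads iron into the phloem and takes part in telling roots how much iron the shoot holds. Nitric oxide has been reported to act on both ferritin expression and the iron deficiency response of plants.

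Across the arrays, the median of the deposited log2 values lay between 4.49 and 4.51 in SNP, between 4.47 and 4.52 in cPTIO and between 4.54 and 4.60 in untreated seedlings. Within a group, pairs of arrays differed over all probe sets with an SD of 0.23 (SNP replicates 1 and 2) to 0.58 (cPTIO replicates 1 and 3), and cPTIO replicate 3 stood farthest from its group. The hybridisation spike-in BioC, a bacterial transcript, averaged 8.53 ± 0.09 (SD, n = 3) in SNP, 8.36 ± 0.51 in cPTIO and 6.32 ± 0.18 in untreated arrays. BioB, another such spike-in, ran from 7.06 to 7.18 in SNP, from 6.25 to 7.11 in cPTIO and from 6.44 to 6.74 in untreated arrays. BioD and cre also lay higher in SNP than in untreated arrays, by less than BioC, and in cPTIO ran across the untreated range. The part of these hybridisation spike-ins in the comparisons with untreated seedlings was not tested. The mean of the 4 poly-A spike-ins, added before labelling, ran from 4.00 to 4.76 in SNP, from 3.85 to 4.60 in cPTIO and from 3.71 to 3.90 in untreated arrays. It served as a covariate in an alternative fit. The untreated range was not reached in SNP and was overlapped only from 3.85 to 3.90 in cPTIO. That fit therefore separates spike-in level poorly from treatment against untreated seedlings. The 3-prime minus 5-prime difference of actin and GAPDH, a measure of RNA integrity, ran from 0.78 to 1.02 in SNP, from 0.73 to 0.99 in cPTIO and from 0.75 to 0.96 in untreated arrays, so that these ranges overlapped. Replicate 3 had the largest difference in both treated groups, 1.02 in SNP and 0.99 in cPTIO, above all untreated arrays. It also had the highest mean poly-A level of each treated group, 4.76 and 4.60. The part of either in the replicate 3 values given below was not tested. Of 25 tissue markers, 3 could be matched by name, rubisco activase (RCA) of leaf mesophyll and the root hair expansins EXPA7 and EXPA18, and all 3 lay above the array median on every array.

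FER1 was the member that differed most clearly. On the log2 scale it read 9.24, 9.23 and 9.67 in SNP replicates 1 to 3, 10.89, 10.91 and 10.85 in cPTIO, and 9.71, 10.18 and 10.04 in untreated seedlings. The cPTIO arrays lay within 0.1 of each other and above every other array, and the SNP arrays lay below every untreated array. The order of its level was thus cPTIO, untreated, SNP, with no overlap between neighbours. In whole seedlings, fewer cells of a type and less transcript per cell cannot be told apart, here or for the genes that follow.

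FER1 rose in cPTIO relative to untreated seedlings by 0.91 on the log2 scale, or 1.88-fold (SE 0.15, limma adjusted p = 0.0175). It was lower in SNP than in cPTIO, with a difference of -1.50 (SE 0.15, limma adjusted p = 0.00371), so that the cPTIO level was 2.84 times the SNP level. SNP minus untreated was -0.59 (SE 0.15, 95% interval -0.94 to -0.24), with a limma adjusted p of 0.0605 that missed the threshold of 0.05. The intervals given here are those of single probe sets and are not adjusted over the array, so that an interval can leave out 0 where the adjusted p does not pass. The cPTIO call was lost without cPTIO replicate 1 (limma adjusted p = 0.0563), without untreated replicate 2 (0.0543) and in the fit with the poly-A covariate (0.147), whereas the SNP against cPTIO call held in all 16 alternatives.

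**Figure D1:**
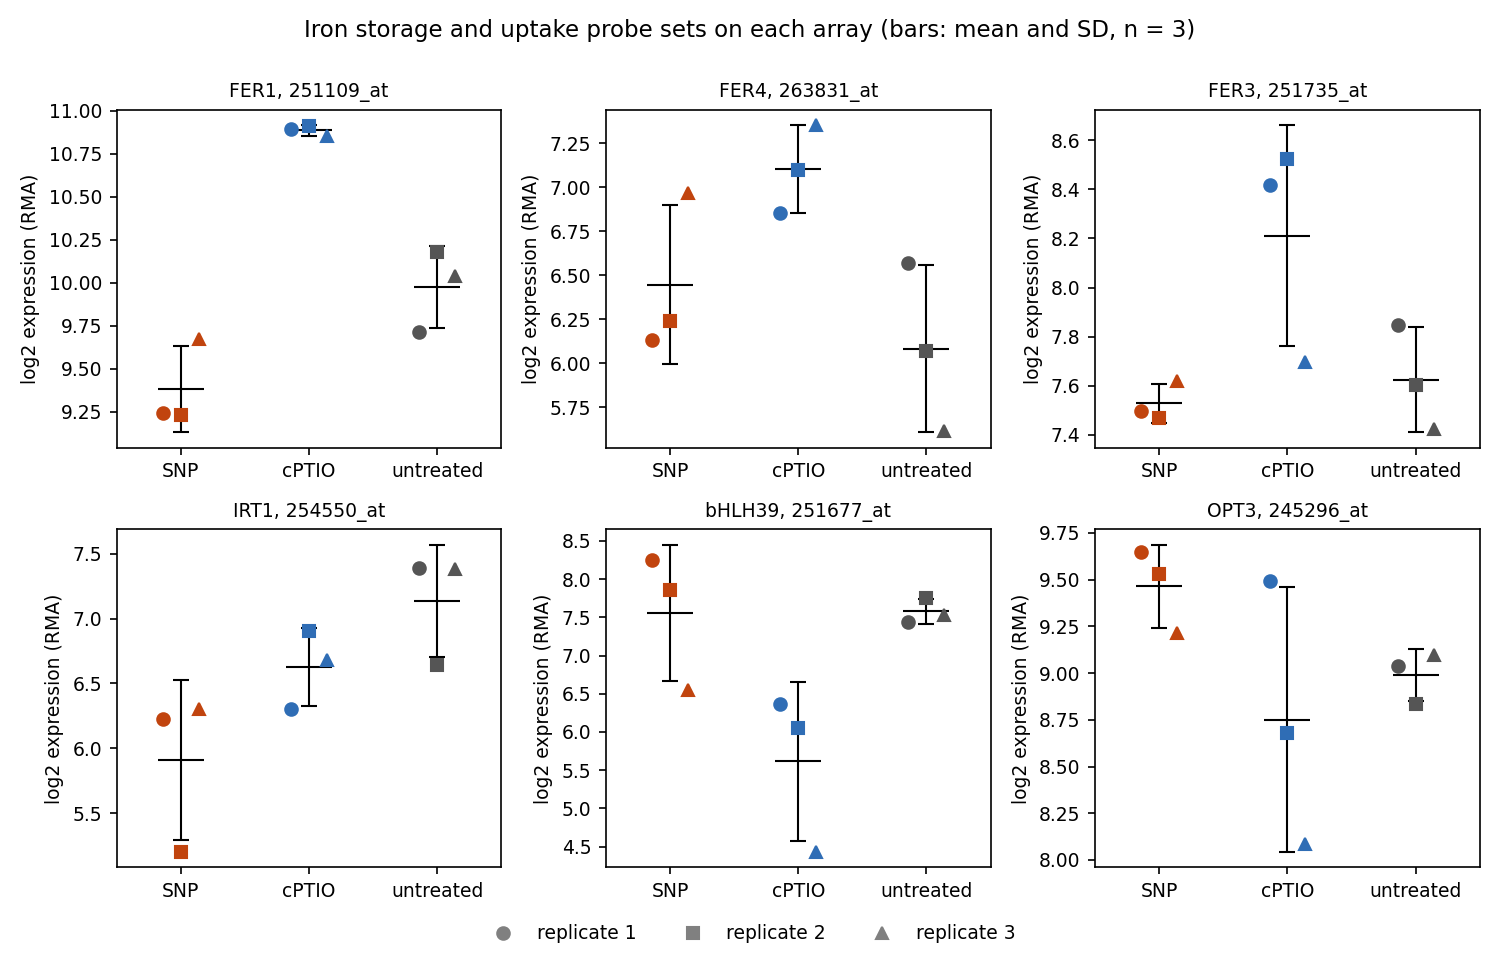
Log2 expression of the 6 probe sets on each array, by group, with a point per array shaped by replicate number and bars for the mean and SD (n = 3). The cPTIO arrays of FER1 sit between 10.85 and 10.91, above all others, and bHLH39 is lowest in cPTIO, with replicate 3 the lowest of both treated groups.

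The other ferritins showed positive cPTIO minus untreated differences as well, but neither passed the test. FER4, a ferritin found in mitochondria as well as plastids, read 6.13, 6.24 and 6.97 in SNP, 6.86, 7.10 and 7.35 in cPTIO, and 6.57, 6.07 and 5.62 in untreated seedlings. Its cPTIO arrays lay above all untreated ones, while SNP overlapped both. The cPTIO minus untreated difference was 1.02 (SE 0.29, 95% interval 0.36 to 1.68, limma adjusted p = 0.0741).

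FER3, another plastid ferritin, read 7.50, 7.47 and 7.62 in SNP, 8.42, 8.52 and 7.70 in cPTIO, and 7.85, 7.60 and 7.42 in untreated seedlings. Replicates 1 and 2 of cPTIO were the highest, and replicate 3 fell among the untreated arrays. The cPTIO minus untreated difference was 0.59 (SE 0.21, limma adjusted p = 0.136). Without cPTIO replicate 3, the lowest cPTIO array, it was 0.84 and passed (limma adjusted p = 0.0125). That was the only pass among the 9 fits with 1 array left out. Over these fits it ran from 0.43 to 0.84, with limma adjusted p up to 0.317. SNP minus cPTIO was -0.66 for FER4 and -0.68 for FER3 (limma adjusted p = 0.276 and 0.133). Without cPTIO replicate 3 the FER3 value was -0.94 and passed (limma adjusted p = 0.00925). This too was the only pass among the 9 fits with 1 array left out. The FER3 value ran from -0.94 to -0.53 over them, with limma adjusted p up to 0.355. SNP minus untreated was 0.36 for FER4 and -0.10 for FER3, with intervals of -0.30 to 1.02 and of -0.58 to 0.39, and over the alternatives they ran from 0.06 to 0.60 and from -0.20 to 0.12.

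Among the 3 ferritins together, limma called 0 in SNP against untreated, 1 as higher in cPTIO against untreated and 1 as lower in SNP against cPTIO, where 6.19%, 6.59% and 3.26% of all probe sets were called. An unadjusted limma p under 0.05 was found for 1, 3 and 2 of the 3 in these comparisons, and for 20.8%, 23.8% and 18.2% of all probe sets. The median difference of the 3 was -0.10, 0.91 and -0.68 in these comparisons, beside 0.00, 0.02 and -0.02 over all probe sets tested. The 2 comparisons against untreated seedlings share the same 3 untreated arrays.

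IRT1, the main iron importer of the root surface, had its lowest mean in SNP. It read 6.23, 5.20 and 6.31 in SNP, 6.31, 6.90 and 6.68 in cPTIO, and 7.39, 6.64 and 7.38 in untreated seedlings. All SNP arrays lay below all untreated ones, while cPTIO overlapped both neighbours in the order untreated, cPTIO, SNP. SNP minus untreated was -1.23 (SE 0.33, 95% interval -1.98 to -0.47), and its limma adjusted p of 0.0684 missed the threshold. It passed in 3 of 16 alternatives: with only probe sets brighter than the median probe set tested (0.0395), with array weights (0.0394) and with an intensity trend (0.0464). It did not pass with any array left out (limma adjusted p from 0.0570 to 0.180) or with the poly-A covariate (0.319). cPTIO minus untreated was -0.51 (95% interval -1.26 to 0.25, limma adjusted p = 0.395), and SNP minus cPTIO was -0.72 (95% interval -1.47 to 0.04, limma adjusted p = 0.298). Without SNP replicate 2 the last was -0.36 (limma adjusted p = 0.662), and with array weights cPTIO minus untreated was -0.28 (0.686).

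IRT1 is expressed in the root epidermis, so markers of root hairs are given beside it. EXPA18, an expansin of growing root hairs, fell in both treated groups, with log2 differences from untreated seedlings of -1.28 in SNP (limma adjusted p = 0.00702) and -0.79 in cPTIO (0.0414). EXPA7, of the same family, fell in SNP, with a difference of -0.98 (limma adjusted p = 0.0192), and its cPTIO difference was -0.49 (limma adjusted p = 0.143). EXPA18 ranged from 4.86 to 5.39 in SNP, from 5.34 to 5.86 in cPTIO and from 6.28 to 6.64 in untreated seedlings, and EXPA7 from 4.66 to 5.39, from 5.52 to 5.72 and from 6.02 to 6.15. RCA, the activase of the carbon-fixing enzyme, gave SNP minus untreated -0.18 and cPTIO minus untreated 0.07, neither called (limma adjusted p = 0.258 and 0.632). The part of the root hair markers in the IRT1 values was not tested.

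bHLH39, which pairs with the master regulator FIT to switch on IRT1 and the root ferric reductase, had its lowest values in cPTIO. It read 8.26, 7.86 and 6.55 in SNP, 6.36, 6.05 and 4.43 in cPTIO, and 7.44, 7.75 and 7.54 in untreated seedlings. The cPTIO arrays lay below all others, and the SNP arrays, with a mean of 7.56 ± 0.89 (SD, n = 3), spread around the untreated ones, at 7.58 ± 0.16. Replicate 3 was the lowest array within both treated groups.

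The cPTIO minus untreated difference of bHLH39 was -1.96 (SE 0.55, 95% interval -3.23 to -0.70, limma adjusted p = 0.0739), which missed the threshold. With the poly-A covariate it was -1.10 (limma adjusted p = 0.419), and it passed in 4 of 16 alternatives. SNP minus cPTIO was 1.94 (SE 0.55, limma adjusted p = 0.108). With the replicate number as a block, since same-numbered arrays of these 2 groups deviated together, its SE was 0.37 and it passed (limma adjusted p = 0.0464). SNP minus cPTIO passed in 3 of 16 alternatives, with limma adjusted p from 0.0353 to 0.323. SNP minus untreated was -0.02, with a wide interval of -1.29 to 1.25. Its sign turned under 5 of 16 alternatives, with values from -0.37 without SNP replicate 1 to 0.95 with the poly-A covariate.

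OPT3 read 9.65, 9.53 and 9.22 in SNP, 9.49, 8.68 and 8.08 in cPTIO, and 9.04, 8.83 and 9.10 in untreated seedlings. SNP lay above all untreated arrays, and the cPTIO arrays ran across both other groups, again with replicate 3 the lowest of each treated group. None of its differences passed: SNP minus untreated was 0.47 (SE 0.31, limma adjusted p = 0.448), cPTIO minus untreated was -0.24 (SE 0.31, limma adjusted p = 0.690) and SNP minus cPTIO was 0.71 (SE 0.31, limma adjusted p = 0.269). The interval of the last was 0.01 to 1.42. Without cPTIO replicate 3 the cPTIO minus untreated difference turned to 0.10 and SNP minus cPTIO was 0.38. Without cPTIO replicate 1 they were -0.61 and 1.08 (limma adjusted p = 0.162 and 0.0532).

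Counted together, 0 of the 6 were called in SNP against untreated by limma, where 6.19% of all probe sets were called. In cPTIO against untreated 1 of the 6 was called, FER1, against 6.59% of all probe sets, and in SNP against cPTIO again 1, FER1, against 3.26%. An unadjusted limma p under 0.05 was found for 2, 4 and 4 of the 6 in these comparisons, beside the 20.8%, 23.8% and 18.2% of all probe sets. The arrays of the groups did not overlap in 3 of the 6 in SNP against untreated (FER1, IRT1 and OPT3), as in 29.9% of all probe sets. They did not overlap in 3 of the 6 in cPTIO against untreated (FER1, FER4 and bHLH39), as in 26.4% of all, and in 3 of the 6 in SNP against cPTIO (FER1, FER3 and bHLH39), as in 21.2%.

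**Figure D2:**
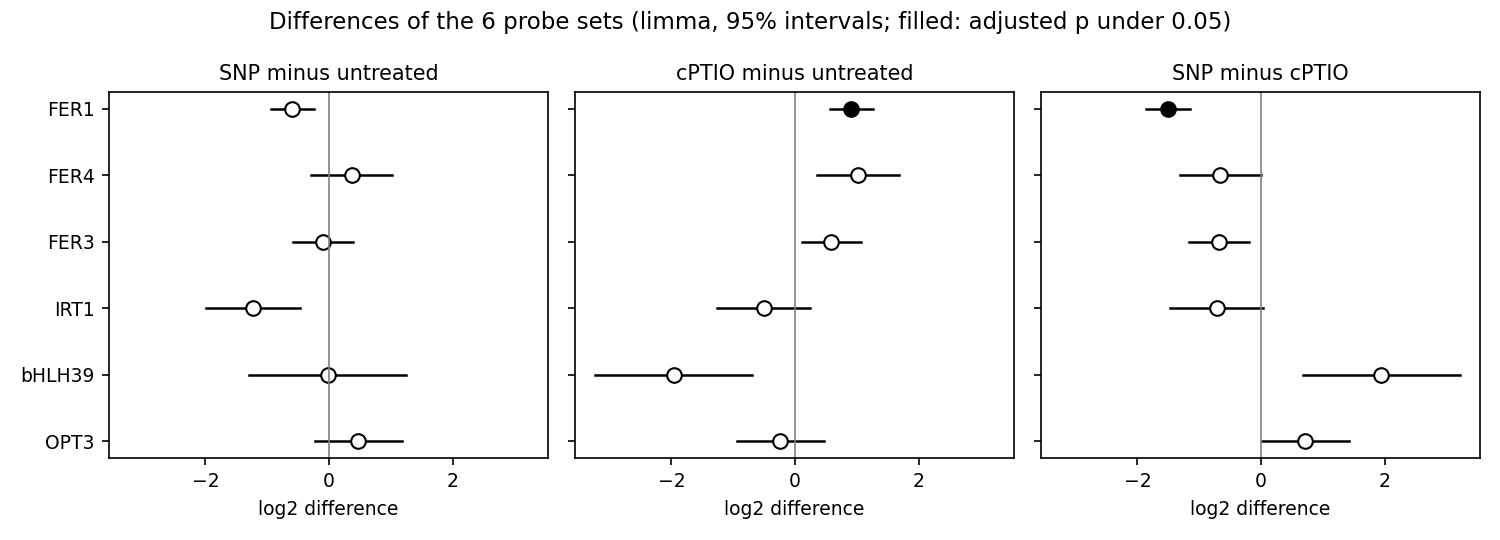
Log2 differences of the 6 probe sets in the 3 comparisons, with 95% intervals from limma and filled points where the adjusted p is under 0.05. FER1 alone is filled, at 0.91 for cPTIO minus untreated and -1.50 for SNP minus cPTIO, and the intervals of bHLH39 are the widest.

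The rest of the iron pathway was read from a list of 70 loci, drawn up with earlier results of these data known. Of these, 24 were measured by 25 probe sets with a name, the 6 above and 19 from the platform annotation. The fourth ferritin, FER2, the ferric reductase FRO2 and the regulator FIT were not analysed here. In SNP against untreated, 3 of the 25 were called, 1 higher and 2 lower, which is 12.0% of the list beside 6.19% of all probe sets. In cPTIO against untreated 4 were called, 2 higher and 2 lower (16.0% beside 6.59%), and in SNP against cPTIO 3, 2 higher and 1 lower (12.0% beside 3.26%). The list's median difference was -0.02, -0.16 and -0.11 in these comparisons, beside 0.00, 0.02 and -0.02 over all probe sets.

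**Figure D3:**
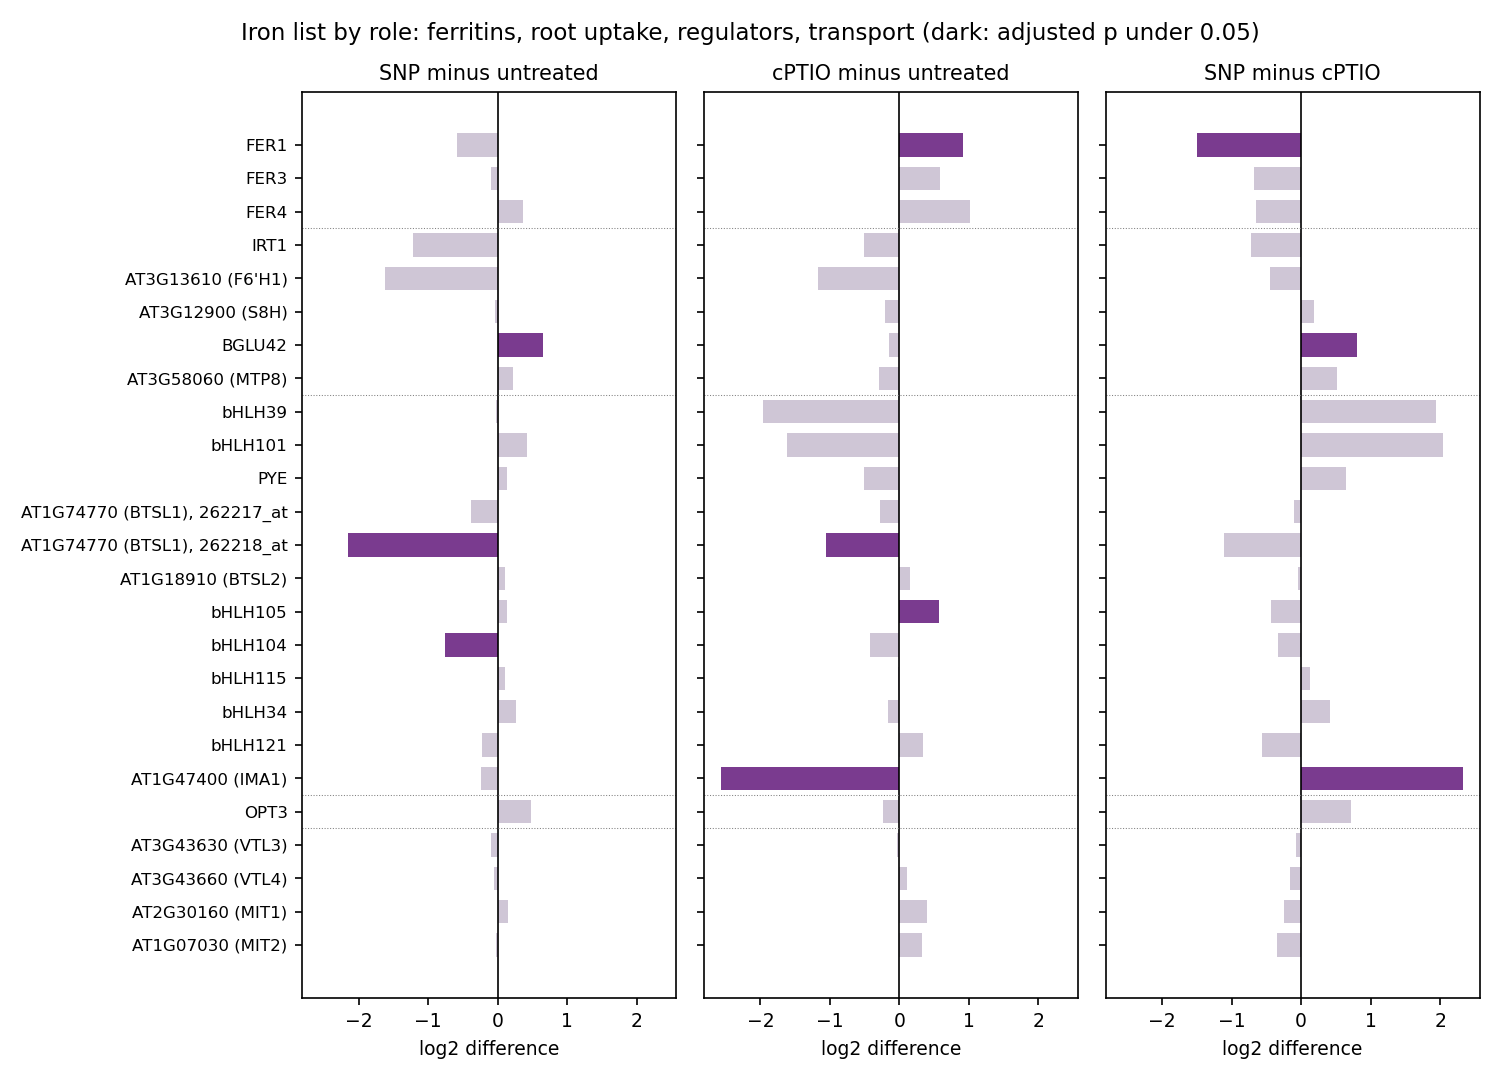
Log2 differences of the 25 named iron probe sets, ordered by role from ferritins and root uptake to regulators and transport, in the 3 comparisons; dark bars passed an adjusted p of 0.05. In cPTIO minus untreated the 3 ferritins point up and bHLH39, bHLH101 and AT1G47400 point down, but of these only FER1 and AT1G47400 passed. The other bars that passed there are bHLH105, pointing up, and the brighter probe set of AT1G74770, pointing down. In SNP minus untreated the longest bar is that of AT1G74770.

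The largest change of the list in cPTIO was that of AT1G47400, the locus of the small peptide IMA1, which promotes the iron deficiency response. It read 9.47, 9.27 and 8.33 in SNP, 6.99, 6.57 and 6.54 in cPTIO, and 8.74, 9.63 and 9.43 in untreated seedlings. The cPTIO arrays lay more than a full log2 unit below all others, and the SNP and untreated arrays overlapped. It fell in cPTIO relative to untreated seedlings, with a log2 difference of -2.57 (SE 0.33, limma adjusted p = 0.00892), and was higher in SNP than in cPTIO by 2.32 (SE 0.33, limma adjusted p = 0.0104). SNP minus untreated was -0.24 (SE 0.33, limma adjusted p = 0.757). The cPTIO call was lost with the poly-A covariate (limma adjusted p = 0.0951) and without untreated replicate 2 (0.0511), and the SNP against cPTIO call without SNP replicate 2 (0.0588).

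bHLH101, a close relative of bHLH39 that was named after its values had been seen, read 6.74, 6.08 and 3.74 in SNP, 3.83, 3.21 and 3.42 in cPTIO, and 5.34, 5.38 and 4.60 in untreated seedlings. All cPTIO arrays lay below all untreated ones, but the cPTIO values lie under the array medians and are not shown to be above background. The cPTIO minus untreated difference of -1.62 was not called (limma adjusted p = 0.188).

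**Figure D4:**
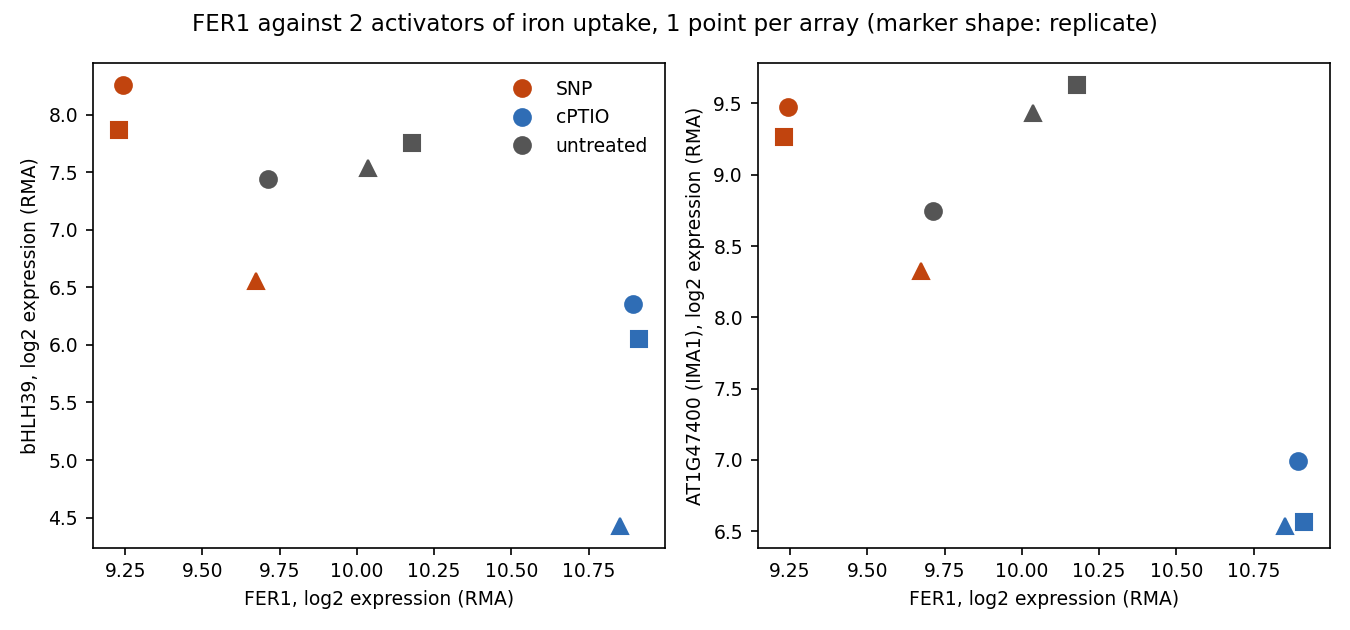
FER1 against bHLH39 (left) and AT1G47400 (right), in log2 expression, with a point per array coloured by group and shaped by replicate number. The 3 cPTIO arrays stand apart at the lower right of both panels, with FER1 from 10.85 to 10.91 and AT1G47400 from 6.54 to 6.99.

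AT1G74770 is the locus of BTSL1, a ubiquitin ligase of roots that limits iron uptake. The brighter of its 2 probe sets read 3.82, 3.38 and 4.21 in SNP, 4.56, 5.32 and 4.84 in cPTIO, and 5.82, 5.82 and 6.23 in untreated seedlings, so that the 3 groups did not overlap. It fell in SNP, with a log2 difference of -2.16 (SE 0.25, limma adjusted p = 0.00375), a call that held in all 16 alternatives. It fell in cPTIO too, with a difference of -1.05 (SE 0.25, limma adjusted p = 0.0474). SNP minus cPTIO was -1.11 (SE 0.25, limma adjusted p = 0.0565). The SNP mean of 3.80 lies under the array medians, so the size of the decrease is uncertain.

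The dimmer probe set of the same locus ran from 2.69 to 2.79 in SNP, from 2.76 to 2.93 in cPTIO and from 3.02 to 3.31 in untreated seedlings, under all array medians, and was not called in any comparison. The cPTIO call of the brighter probe set held in only 4 of 16 alternatives, and the largest limma adjusted p was 0.260. The root hair marker EXPA18 fell in the same comparisons, and EXPA7 in SNP, and their part in it was not tested.

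Of 5 bHLH factors that act upstream of bHLH39, 2 were called in a comparison, bHLH104 and bHLH105. bHLH104, which activates the genes for bHLH39 and its relatives, averaged 7.07 ± 0.17 in SNP, 7.41 ± 0.19 in cPTIO and 7.83 ± 0.06 in untreated seedlings (SD, n = 3), and both treated groups lay below all untreated arrays. It fell in SNP, with a difference of -0.76 (SE 0.12, limma adjusted p = 0.0109), and the cPTIO difference of -0.42 missed the threshold (limma adjusted p = 0.0770). The SNP call was lost without SNP replicate 2 (0.0510) or untreated replicate 2 (0.0517).

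bHLH105, also called ILR3, which acts with bHLH104 and also as a repressor of ferritin genes together with PYE, averaged 8.60 ± 0.12 in SNP, 9.04 ± 0.23 in cPTIO and 8.47 ± 0.08 in untreated seedlings (SD, n = 3). It rose in cPTIO by 0.57 (SE 0.13, limma adjusted p = 0.0360), but that call held in only 6 of 16 alternatives, and the largest limma adjusted p was 0.243. PYE, its partner, bHLH34, bHLH115 and bHLH121 were not called in any comparison.

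Of the root uptake genes, BGLU42, a beta-glucosidase of roots, was called. It read 6.26, 6.38 and 6.16 in SNP, 5.28, 5.55 and 5.58 in cPTIO, and 5.74, 5.40 and 5.72 in untreated seedlings, with SNP above all other arrays. It rose in SNP by 0.65 relative to untreated seedlings (SE 0.13, limma adjusted p = 0.0248) and was higher in SNP than in cPTIO by 0.80 (SE 0.13, limma adjusted p = 0.0172). The first call was lost without SNP replicate 1 or 2 or untreated replicate 2 or 3 and with the poly-A covariate (limma adjusted p from 0.0505), and the second without SNP replicate 1 (0.0682) or 2 (0.0871). AT3G13610, the locus of F6'H1, which makes iron-mobilising coumarins and was named after its values had been seen, averaged 5.86 ± 0.20 in SNP, 6.31 ± 1.02 in cPTIO and 7.48 ± 0.34 in untreated seedlings (SD, n = 3). Its SNP arrays lay below all untreated ones, with a difference of -1.62 that was not called (limma adjusted p = 0.0708).

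**Figure D5:**
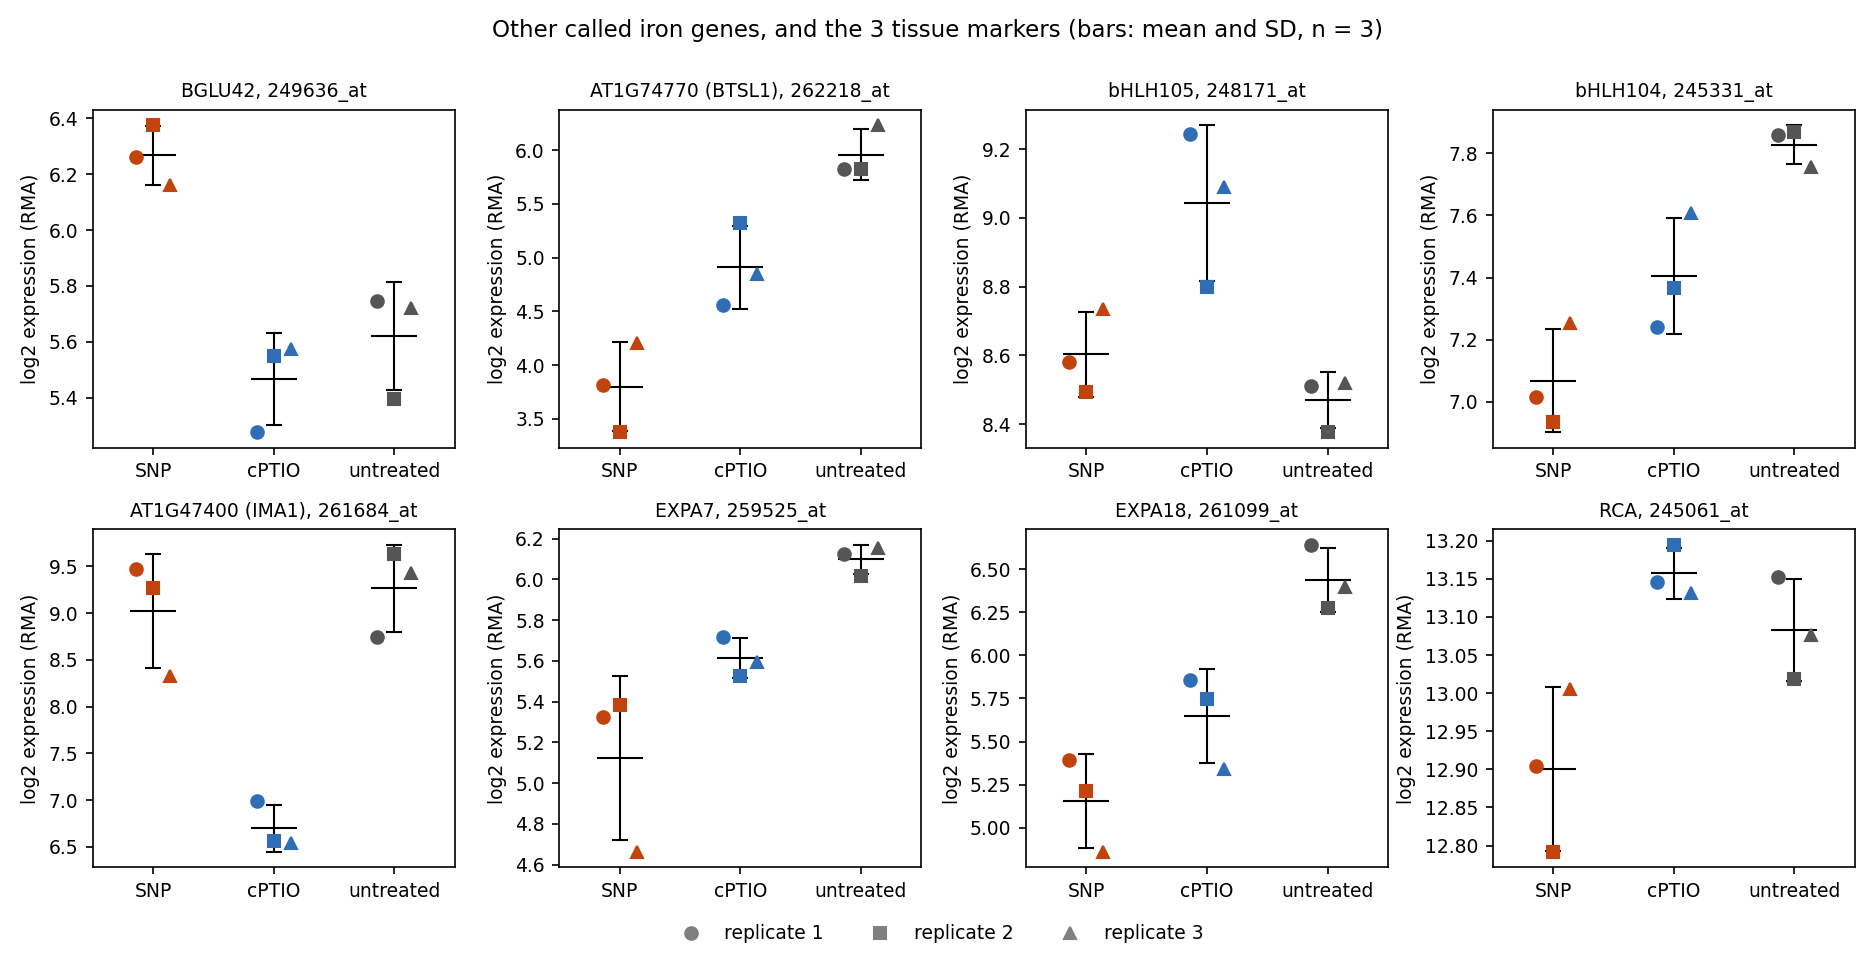
Log2 expression of the called iron genes outside the 6 and of the 3 tissue markers on each array, by group, with bars for the mean and SD (n = 3). AT1G47400 is lowest in cPTIO, between 6.54 and 6.99, whereas AT1G74770, bHLH104, EXPA7 and EXPA18 lie below the untreated arrays in both treated groups.

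The 4 probe sets for transporters of organelles, 2 mitochondrial iron carriers (AT2G30160 and AT1G07030) and 2 vacuolar iron transporter-like proteins (AT3G43630 and AT3G43660), gave 0 calls by limma in each comparison, beside 6.19%, 6.59% and 3.26% of all probe sets in SNP against untreated, cPTIO against untreated and SNP against cPTIO. An unadjusted p under 0.05 was found for 0, 1 and 1 of the 4, beside 20.8%, 23.8% and 18.2% of all probe sets, so these counts lie near the background. Their differences ran from -0.10 to 0.15, from -0.03 to 0.40 and from -0.35 to -0.07.

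Probe sets with a pattern most like that of each member were ranked by Pearson correlation over the 9 arrays, which share their group structure and their normalisation. For FER1 these were AT5G05310, AT4G27450 and the methionine sulfoxide reductase MSRB9, with r of 0.968, 0.964 and 0.959. For FER4 they were AT1G35210, AT4G17080 and AT5G14730 (r from 0.952 to 0.956), and for FER3 AT1G12160, AT2G18115 and AT1G52950 (r from 0.947 to 0.960). IRT1 was followed by AT2G15670, AT2G05400 and AT5G58540 (r from 0.923 to 0.928), the lowest values among the 6. bHLH39 was followed by AT5G52220, AT4G04750 and AT5G02830 (r from 0.958 to 0.964), and OPT3 by AT1G17850, AT2G16630 and DI21 (r from 0.937 to 0.966). These were the highest of 13436 candidates, the probe sets with a name in the platform annotation, so that the members themselves could not appear.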

How the data were processed

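The authors deposited 1 log2 value for each probe set of each array. RMA, which corrects background, quantile-normalises and summarises probe sets, is named with limma in the submitters' processing notes; no version is named. Detection calls and probe intensities were not used, so a mean near or under the array medians is not shown to exceed background. Array number limits the precision.

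Of 22810 probe sets, 64 AFFX controls were set aside and 22746 tested in limma 3.58.1 (R 4.3.3): 1 fit to all 9 arrays with group as the only term, two-sided, Benjamini-Hochberg over all probe sets in each comparison, call at adjusted p under 0.05. The fit was tested on simulated arrays with independent noise, so outlying arrays and deviations shared between arrays were not covered. The platform annotation gave 13513 probe sets 1 gene symbol, 503 several, and did not list 8730 of those tested. By Entrez ID 13436 of the 13513 were joined to RefSeq TAIR10.1 loci. Named genes were the 6, the called iron list members, and per member the 3 most correlated probe sets. Other iron list members named in the text were not called and were named after their values had been seen. The planned promoter motif search was not run. The members and lists were chosen with earlier results of these data known. Alternatives were median centring, only probe sets brighter than the median one, fits of 2 groups, array weights, an intensity trend, the replicate block, the mean poly-A spike-in level as a covariate, and each array left out.

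Replicate numbers recur in every group. Deviations from group means correlated at 0.257, 0.305 and 0.417 between same-numbered SNP and cPTIO arrays, all over 0.1, so these were taken as paired, on the evidence of the values alone. The corresponding values were 0.127, -0.0174 and 0.0849 for SNP with untreated and 0.0621, 0.0564 and -0.00711 for cPTIO with untreated arrays. These were taken as unpaired. The main fit used no pairing, so its SNP against cPTIO p-values ignore that of the treated arrays. The replicate block entered only as an alternative, and there it covered the untreated arrays too. Plots were made in matplotlib 3.10.9 under Python 3.11.15.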

Additional observations from a re-analysis of the deposited data

Results flagged for a closer look

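Among control transcripts outside the tested probe sets, BioC and plant ubiquitin lay higher on all 6 treated arrays than on all 3 untreated ones. The other hybridisation spike-ins, BioB, BioD and cre, did not. BioC and ubiquitin were picked out by that rule. The treated minus untreated difference was 2.12 on the log2 scale for BioC and 0.34 for ubiquitin, and their part in the iron gene comparisons was not tested.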

How the results depend on the processing

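Over the alternatives, 288 values were computed for the 6 probe sets: 266 stayed on the same side of the threshold, 3 no longer passed, 19 came to pass and 0 reversed a call. For the other called iron genes, 198 of 240 stayed, 34 no longer passed and 8 came to pass. The number of the 6 called in SNP against untreated, 0, became 1 with only the brighter probe sets, 2 with array weights and 1 with an intensity trend, and ranged from 0 to 1 with an array left out (1 without SNP replicate 3 or untreated replicate 1). In cPTIO against untreated, 1 became 3 with the brighter probe sets, 4 with array weights, 2 with an intensity trend, 2 with the replicate block and 0 with the poly-A covariate. It ranged from 0 (without cPTIO replicate 1 or untreated replicate 2) to 2 (without cPTIO replicate 3). In SNP against cPTIO, 1 became 3 with array weights, 2 with the replicate block and 2 with the poly-A covariate, and ranged from 1 to 2 (without cPTIO replicate 3). The list of 25 had 3 calls in SNP against untreated, 5 with the brighter probe sets (where only 19 of the 25 were tested), 7 with array weights and 6 with an intensity trend. With an array left out it had from 1 (without SNP replicate 2 or untreated replicate 2) to 4. It had 4 in cPTIO against untreated, 7 with array weights, 2 with only the 2 groups fitted and 0 in the poly-A fit. With an array left out it had from 0 (untreated replicate 2) to 5, with 1 without cPTIO replicate 1 and 2 without SNP replicate 1 or 2 or untreated replicate 1 or 3. It had 3 in SNP against cPTIO, 7 with array weights, 5 with the poly-A covariate and from 1 (without SNP replicate 2) to 6 (without SNP replicate 3) with an array left out. Over the whole array, 1498 probe sets were called in cPTIO against untreated, 122 without untreated replicate 2 and 26 with the poly-A covariate. Over all 3 comparisons and these alternatives the array's calls ranged from 260 to 3560, from 26 to 2260 and from 161 to 1652 in SNP against untreated, cPTIO against untreated and SNP against cPTIO. Leaving out arrays or adding terms lowers the degrees of freedom. The poly-A level was also largely confounded with treatment against untreated seedlings, so that fit cannot tell them apart. Beyond that the cause was not tested. In cPTIO against untreated, where the numbers do not pair the arrays, the replicate block gave bHLH39 a limma adjusted p of 0.0311 and AT1G74770 one of 0.0544. Besides these and bHLH39 in SNP against cPTIO, it changed no call of the named iron genes.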
